A study of Mus musculus with 4 samples.

Results

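The genes described here encode the enzymes that cut and rejoin immunoglobulin gene segments: the recombinase pair Rag1 and Rag2, the terminal transferase Dntt, and 7 end joining factors (Lig4, Xrcc4, Xrcc5, Xrcc6, Prkdc, Dclre1c and Atm). They were taken by symbol, and all 10 were found among the 23284 gene symbols. RNA-seq was run on pre-B cells from C57BL/6J marrow in 4 libraries, 1 for each of 4 groups. Marrow transgenic for the signal-transducing adaptor protein STAP-2 (gene Stap2) and wild-type marrow were taken at steady state, and both titles carry the code 0901. Marrow labelled STAP-2 knockout and wild-type marrow were taken 1 month after transplantation, and both titles carry the code 0826. The study asked how STAP-2 acts on B lymphopoiesis under stress. The promoter of the transgene, the deleted part of Stap2, the gate that defined pre-B cells, the number of animals behind a library and the meaning of the codes are not given in the sources used.

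V(D)J recombination assembles the variable regions of antigen receptors from separate gene segments. RAG1 and RAG2 act together as an endonuclease that cuts beside recombination signals and leaves hairpin coding ends. The Ku heterodimer (Xrcc6 and Xrcc5) binds the broken ends, the kinase DNA-PKcs (Prkdc) activates the nuclease Artemis (Dclre1c) to open the hairpins, terminal transferase adds bases without a template, and the XRCC4 and DNA ligase IV complex (Xrcc4 and Lig4) seals the joint. The kinase ATM (Atm) holds the ends in the complex and signals the break. In mouse marrow, Dntt belongs to the pro-B stage of heavy chain joining, while both Rag genes are used again in small, resting pre-B cells for light chain joining.

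Every value is an FPKM, a read count scaled to transcript length and library size. The libraries held about 7270000 to 8680000 reads, as judged from low values, which fall on steps worth 1 read. With 1 library in each group there is no replicate spread and no test. Intervals given with ratios are 95% intervals for counting error only (exact between libraries, approximate between genes), so a ratio whose interval leaves out 1 differs beyond counting error and nothing more. Stap2 itself had 0.536 FPKM in the transgenic library against 0.212 in steady-state wild type, about 5 and 2 reads, and 0.179 FPKM in the library labelled knockout, about 2 reads, while it was listed at 0 in transplanted wild type. This order goes against the knockout label, but 0 reads in wild type allow up to 0.298 FPKM, so that these levels check neither label. All 8 pre-B markers, among them Cd79a and Vpreb3, were detected in every library, with sums of 6535 FPKM in the transgenic library against 6880 in steady-state wild type. Their sum in the library labelled knockout was 6375 FPKM, against 6860 in transplanted wild type. Markers of other cells were present beside them. The 8 neutrophil markers summed to 1776 FPKM in the transgenic library against 749 in steady-state wild type, and to 629 in the library labelled knockout against 1637 in transplanted wild type. With bulk RNA, fewer cells of a kind and less RNA per cell cannot be told apart.

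The genes span a wide range of levels, and partners in one complex were not at like levels (see the plot of levels by library). Rag1 and Xrcc6, at medians of 441 and 270 FPKM, stood above at least 97.0% of the genes at 1 FPKM or more in every library. Rag2, Dclre1c and Lig4 formed a middle group with medians of 37.5, 35.1 and 34.3 FPKM. Atm, Dntt, Xrcc4, Prkdc and Xrcc5 were low, with medians of 13.3, 9.80, 8.92, 7.19 and 6.94 FPKM. Over the 4 libraries the highest level was 7.10 times the lowest for Dntt, 2.23 times for Rag1, 1.52 times for Rag2 and between 1.03 times (Xrcc5) and 1.45 times (Prkdc) for the end joining factors.

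**Figure D1:**
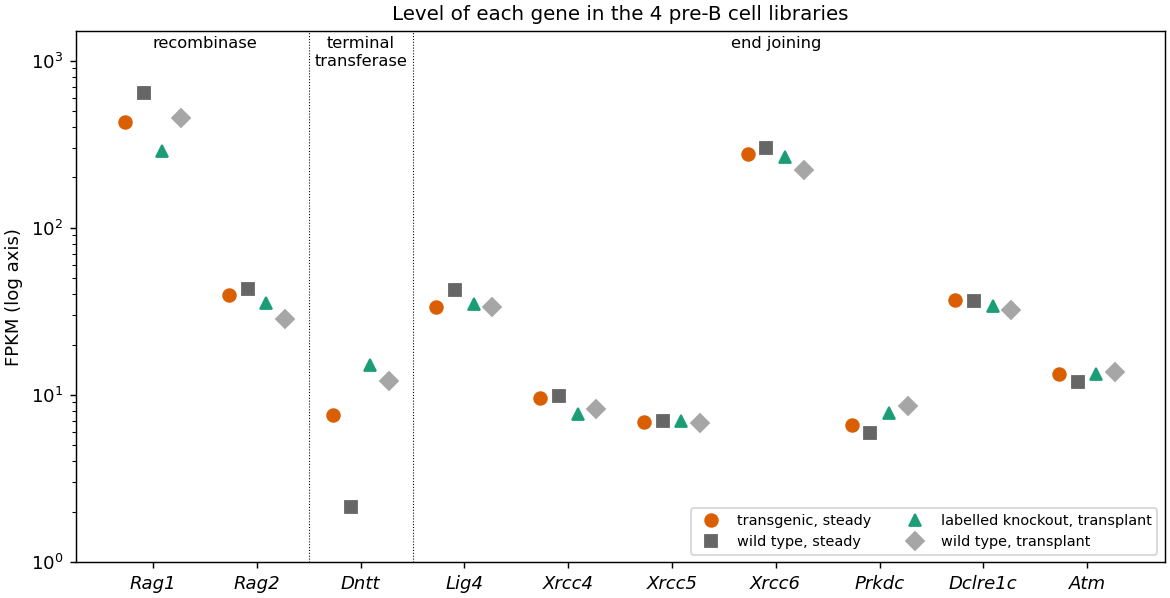
FPKM of each gene on a log axis in the 4 pre-B cell libraries, 1 point per library, grouped into recombinase, terminal transferase and end joining factors. Dntt spreads from 2.12 to 15.1 FPKM and Rag1 from 286 to 638, while the points of Xrcc5 lie between 6.81 and 7.01.

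Promoter sequence was read for 9 of the 10 genes from RefSeq windows on GRCm38.p6 that run from 250 bases before to 50 after a start site. The genes of the recombinase and of terminal transferase differ from most end joining genes in CpG content, so 1 window of each of those 3 is shown with that of Xrcc6, the end joining gene of the highest level. Each stretch runs 5′ to 3′ on the strand of the gene from 150 bases before the start to 20 after it, and capitals mark CpG pairs.
Rag1 (chr2:101649513-101649682, minus strand): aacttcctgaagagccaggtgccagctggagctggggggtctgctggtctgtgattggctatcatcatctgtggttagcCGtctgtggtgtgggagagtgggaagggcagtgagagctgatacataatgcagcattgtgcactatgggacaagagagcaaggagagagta
Rag2 (chr2:101624562-101624731, plus strand): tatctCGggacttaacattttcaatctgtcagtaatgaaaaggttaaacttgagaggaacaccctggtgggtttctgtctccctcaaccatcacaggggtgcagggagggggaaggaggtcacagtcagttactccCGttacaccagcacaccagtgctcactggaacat
Dntt (chr19:41029125-41029294, plus strand): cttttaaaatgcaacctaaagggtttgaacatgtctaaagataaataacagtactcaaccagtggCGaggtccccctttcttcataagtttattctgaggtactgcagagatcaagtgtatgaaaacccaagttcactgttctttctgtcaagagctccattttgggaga
Xrcc6 (chr15:82016219-82016388, plus strand): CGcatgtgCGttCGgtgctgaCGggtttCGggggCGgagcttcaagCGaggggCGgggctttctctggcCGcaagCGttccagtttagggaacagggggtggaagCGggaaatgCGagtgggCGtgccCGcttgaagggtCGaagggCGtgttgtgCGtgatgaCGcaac

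Over the whole windows of 300 bases, Rag1 and Rag2 held 3 CpG pairs each and Dntt held 2, fewer than the median of 7 among 32851 windows of the same length. Xrcc4 held 31, Xrcc6 30, Lig4 30 and 29 at its 2 start sites and Atm 28, while Dclre1c held 12 and Xrcc5 held 9. The GC box GGGCGG, read on both strands, was found in the windows of Xrcc4, Xrcc6, Dclre1c and Atm and in 1 of the 2 of Lig4, and in 35.7% of all windows, and it was not found in those of Rag1, Rag2, Dntt and Xrcc5. The E box letters CANNTG, the core bound by E proteins, which reads the same on both strands, occurred 4 times in the Rag1 window, 3 times in that of Dntt and 2 times in that of Rag2, and at least once in 72.3% of all windows. The windows of Xrcc5 and Dclre1c and each of the 2 of Lig4 also held 2. Those of Xrcc6 and Atm held 1 and that of Xrcc4 held 0. The FOXO letters GTAAACA were found in none of these windows on either strand and in 3.6% of all windows. A match to letters is a description of the window and not a bound site.

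Rag1 (chr2:101638282-101649501, minus strand, GRCm38) carries the active site of the recombinase and Rag2 (chr2:101624718-101632529, plus strand) is its regulatory partner; the genes lie side by side and point towards each other. Rag1 was at 429 FPKM in transgenic cells and 638 in wild type at steady state, and at 286 FPKM in the library labelled knockout and 453 in wild type after transplantation. It was thus lower in each manipulated library than in its wild type, with ratios of 0.672 (0.660 to 0.684) and 0.631 (0.619 to 0.644), and steady-state wild type was the highest library of the 4. On the log2(FPKM + 1) scale these differences were -0.57 and -0.66, lower than those of all but 2.5% and 3.2% of the genes tested.

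Rag2 did not follow Rag1. It was at 39.6 FPKM in transgenic cells and 43.1 in steady-state wild type, a ratio of 0.920 whose interval (0.811 to 1.04) includes 1. It was at 35.4 FPKM in the library labelled knockout and 28.4 in transplanted wild type, a ratio of 1.24 (1.09 to 1.43), the opposite side from Rag1. In order of level, the step from steady-state wild type to the transgenic library was within counting error. So was the step from the transgenic library to the library labelled knockout. The last step, down to transplanted wild type, was beyond it. Only neighbours in the order were compared, so this does not show that steady-state wild type and the library labelled knockout were alike.

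Rag1 exceeded Rag2 per length by 10.8 times (9.88 to 11.9) in the transgenic library and 14.8 times (13.6 to 16.2) in steady-state wild type. The excess was 8.09 times (7.41 to 8.84) in the library labelled knockout and 16.0 times (14.4 to 17.7) in transplanted wild type. The ratio of Rag1 to Rag2 was therefore high in the wild-type libraries and low in the manipulated ones. The transgenic ratio was 0.731 of its wild type (0.644 to 0.828) and that of the library labelled knockout was 0.507 of its own (0.443 to 0.581), whereas both wild types differed by a factor of 1.08 (0.941 to 1.23). This ratio is taken within a library and no rescaling of libraries alters it. B230118H07Rik, a gene whose annotated span overlaps both Rag genes, was at 2.40 FPKM in the transgenic library against 5.03 in steady-state wild type and at 2.40 in the library labelled knockout against 2.25 in transplanted wild type. It lies on the minus strand, as Rag1 does, with a start 31 bp from that of Rag1, so that strand would not separate their reads, and how reads were divided between them is not given in the sources used.

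**Figure D2:**
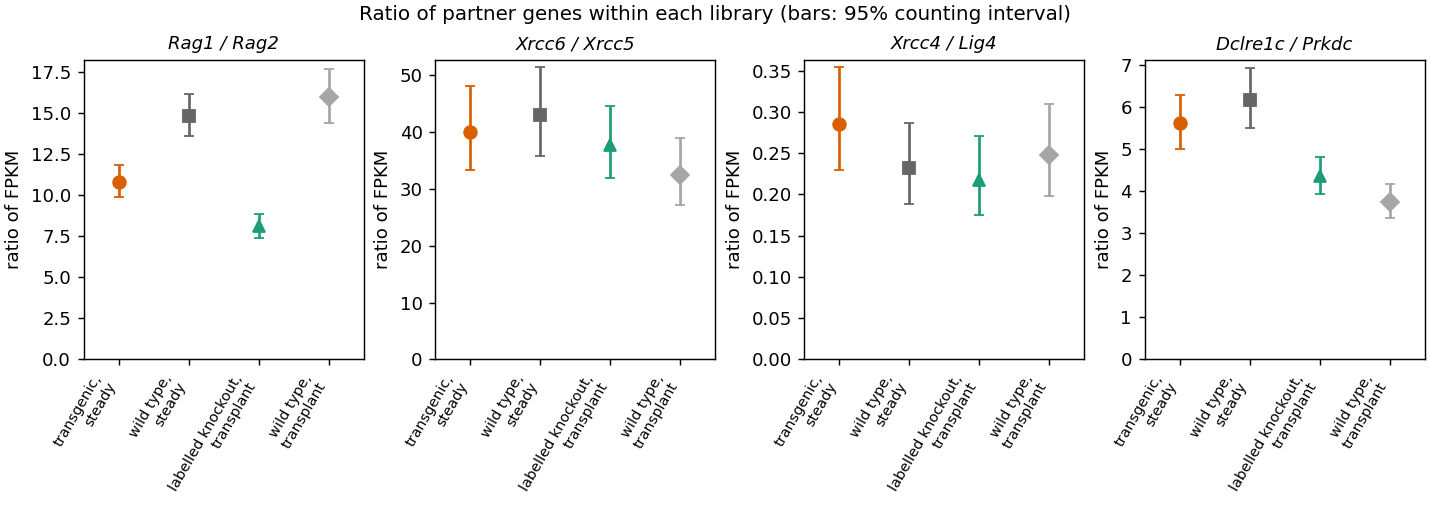
Ratio of FPKM of partner genes within each of the 4 libraries, on linear axes from 0, with 95% counting intervals. Rag1 over Rag2 stands at 10.8 and 8.09 in the transgenic library and the library labelled knockout and at 14.8 and 16.0 in the wild types, and no interval of the first 2 libraries named meets one of a wild type, while the intervals of Xrcc4 over Lig4 overlap in all 4 libraries.

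Dntt (chr19:41029275-41059525, plus strand), the polymerase that adds junctional bases, was the most variable of the 10 genes. It was at 7.53 FPKM in transgenic cells and 2.12 in steady-state wild type, about 95 and 27 reads, and at 15.1 FPKM in the library labelled knockout and 12.1 in transplanted wild type. The lowest level was in steady-state wild type, every step in the order of the 4 libraries lay beyond counting error, and Dntt was higher in each manipulated library than in its wild type, with ratios of 3.55 (2.29 to 5.65) and 1.25 (1.02 to 1.54). The order of the libraries by Dntt was the reverse of that by Rag1 except that the transgenic library and transplanted wild type kept theirs, in each case with transplanted wild type above. The 6 early progenitor and pro-B markers summed to 79.4 FPKM in transgenic cells and 22.6 in steady-state wild type, with Vpreb2 at 0 in the latter. They summed to 98.2 in the library labelled knockout and 75.3 in transplanted wild type. The sum was thus higher in each manipulated library than in its wild type, as Dntt was. It did not follow Dntt between the transgenic library and transplanted wild type, where Dntt was higher and the sum lower in the latter. Of these markers, Kit, Flt3 and Cd34 were below 1 FPKM in every library, so that the sum rests mostly on Igll1, Vpreb1 and Vpreb2. The part of these markers in the Dntt difference was not tested.

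DNA ends are held by the Ku pair, and its members stood far apart in level. Xrcc6 (Ku70; chr15:81987835-82040085, plus strand) was at 276 FPKM in transgenic cells and 299 in steady-state wild type, and at 264 FPKM in the library labelled knockout and 221 in transplanted wild type. Xrcc5 (Ku80; chr1:72307421-72394952, plus strand) was at 6.91 and 6.97 FPKM in the transgenic and wild-type libraries at steady state and at 7.01 and 6.81 FPKM in the library labelled knockout and its wild type. Xrcc6 thus exceeded Xrcc5 per length by between 32.5 times (27.2 to 38.9) in transplanted wild type and 42.9 times (35.8 to 51.4) in steady-state wild type. Xrcc5 rested on 118 to 143 reads a library and no step in its order lay beyond counting error. Xrcc6, with 3268 to 4366 reads, was slightly lower in the transgenic library than in its wild type (ratio 0.924, 0.884 to 0.966) and higher in the library labelled knockout than in its own (1.19, 1.14 to 1.25). Xrcc6 has 12 annotated transcripts, and its level depends on how reads were divided among them. Its annotated span overlaps Desi1, listed under its older symbol Pppde2 at 64.4 to 96.1 FPKM. Desi1 lies on the minus strand, so that strand could separate their reads, but whether strand was used is not given in the sources used.

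Hairpin opening rests on Prkdc (chr16:15637866-15842235, plus strand) and Dclre1c (chr2:3424131-3464130, plus strand). Prkdc was at 6.60 FPKM in transgenic cells and 5.89 in steady-state wild type, and at 7.78 FPKM in the library labelled knockout and 8.55 in transplanted wild type. Dclre1c was at 37.0 FPKM in transgenic cells and 36.3 in steady-state wild type, and at 33.8 FPKM in the library labelled knockout and 32.0 in transplanted wild type. Neither differed between a manipulated library and its wild type beyond counting error. Both transplanted libraries had more Prkdc than both steady-state ones, and the ratio of Dclre1c to Prkdc was 3.74 (3.36 to 4.17) in transplanted wild type against 6.17 (5.49 to 6.93) in steady-state wild type. It was 4.35 (3.92 to 4.81) in the library labelled knockout, 1.161 of its wild type (1.001 to 1.346), just beyond counting error. In the transgenic library it was 5.61 (5.01 to 6.28), 0.908 of its wild type (0.772 to 1.07). The start of Mcm4, a replicative helicase gene, lies 466 bp from that of Prkdc on the opposite strand; Mcm4 was at 45.2 FPKM in the transgenic library against 36.5 in steady-state wild type and at 53.3 in the library labelled knockout against 36.6 in transplanted wild type.

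Ligation rests on Lig4 (chr8:9969049-9977686, minus strand) and its scaffold Xrcc4 (chr13:89774027-90089608, minus strand). Lig4 was at 33.5 FPKM in transgenic cells and 42.2 in steady-state wild type, a ratio of 0.795 (0.719 to 0.879), and at 35.1 FPKM in the library labelled knockout and 33.4 in transplanted wild type (1.05, 0.952 to 1.16). Steady-state wild type was the only one of the 4 libraries to stand apart from the rest beyond counting error. Abhd13, whose start lies 21 bp from that of Lig4 on the opposite strand, was at 18.0 FPKM in the transgenic library against 19.3 in steady-state wild type and at 18.6 in the library labelled knockout against 17.0 in transplanted wild type. Xrcc4 was at 9.55 FPKM in transgenic cells and 9.78 in steady-state wild type, and at 7.65 in the library labelled knockout and 8.28 in transplanted wild type, with 85 to 96 reads and no step beyond counting error. Lig4 exceeded Xrcc4 per length by 3.51 times in the transgenic library and 4.31 in steady-state wild type, and by 4.59 times in the library labelled knockout and 4.03 in transplanted wild type. Atm (chr9:53439149-53536740, minus strand) was at 13.3 FPKM in the transgenic library against 12.0 in steady-state wild type, a ratio of 1.11 (1.01 to 1.22), and at 13.4 FPKM in the library labelled knockout against 13.7 in transplanted wild type. Npat, a histone gene activator whose start lies 307 bp from that of Atm on the opposite strand, was at 8.92 and 7.99 FPKM in the transgenic and wild-type libraries at steady state.

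Added STAP-2 is addressed by setting the transgenic library against wild type at steady state. Differences were taken on the log2(FPKM + 1) scale among the 10843 genes that reached 1 FPKM in at least 1 library of the pair, and 1.3-fold was used as the lower of 2 thresholds because most of the 10 genes differ by little. Dntt was the 1 gene of 10 at least 1.3-fold higher, against 8.79% of all genes tested, and Rag1 the 1 at least 1.3-fold lower, against 6.24%. At 2-fold in either direction stood Dntt alone, against 1.9% of all genes. The 7 end joining factors had a median of -0.01, of the other sign under 2 of the scalings (0.00 and 0.01), and none passed 1.3-fold. All genes tested had a median of -0.02. With each library rescaled to the same FPKM sum that median was -0.13, the split at 1.3-fold was 602 higher and 1276 lower in place of 953 and 677, and Lig4 joined Rag1 on the lower side.

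Loss of STAP-2 in recovering marrow is addressed by the transplanted pair. In the library labelled knockout, 1 of the 10 genes (Rag1) was at least 1.3-fold lower, against 9.47% of the 10790 genes tested, and 0 were at least 1.3-fold higher, against 7.6%. At 2-fold in either direction 0 of 10 stood, against 1.84%. The end joining factors had a median of 0.04 and none passed 1.3-fold, beside a median of -0.03 over all genes. Rag2, Dntt and Xrcc6 lay just inside the threshold, at 0.31, 0.30 and 0.26 on the log2 scale, and Rag2 and Dntt passed it when each library was rescaled to the same FPKM sum, which made the split of all genes 1223 higher and 710 lower in place of 820 and 1022. Rag1 was on the lower side and Dntt on the higher side in both genotype comparisons, beyond counting error each time. Xrcc4 (lower) and Dclre1c (higher) also kept their side, but within counting error. Dclre1c changed sign in the transgenic comparison when rescaled to the same sum (-0.09). How many of all genes keep their side in both comparisons was not counted, so these members are not set apart by it.

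Transplanted against steady-state wild type shows what the 10 genes do with no change of genotype, although every steady-state title has one code and every transplanted title the other, so that transplantation and whatever the code marks cannot be told apart. This comparison shares a library with each of the genotype comparisons. Rag1 was at 453 FPKM in transplanted and 638 in steady-state wild type (ratio 0.711, 0.698 to 0.723), and Rag2 at 28.4 and 43.1 FPKM in the same order (0.659, 0.575 to 0.755). Here the recombinase genes went the same way by like amounts. With Xrcc6 (0.739, 0.706 to 0.774) they made 3 of 10 genes at least 1.3-fold lower, against 6.38% of 10835 genes tested. Dntt (5.68, 3.76 to 8.87) and Prkdc (1.45, 1.302 to 1.62) made 2 of 10 at least 1.3-fold higher, against 10.1%, and Dntt alone passed 2-fold, against 2.3% in either direction. The end joining factors had a median of -0.18 with Lig4 at -0.33, beside a median of -0.02 over all genes. Rescaled to the same sum, all genes split into 817 higher and 1214 lower in place of 1095 and 691, and Lig4 passed 1.3-fold lower. Marker sums differed here as well, in both directions. Neutrophil markers summed to 1637 FPKM in transplanted and 749 in steady-state wild type. Sums of monocyte and macrophage, immature and mature B cell, and early progenitor and pro-B markers were also higher after transplantation. Plasma cell markers were lower, at 96.5 against 417 FPKM, and so were erythroid markers, at 5.67 against 35.0. The part of these cells in the differences was not tested.

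**Figure D3:**
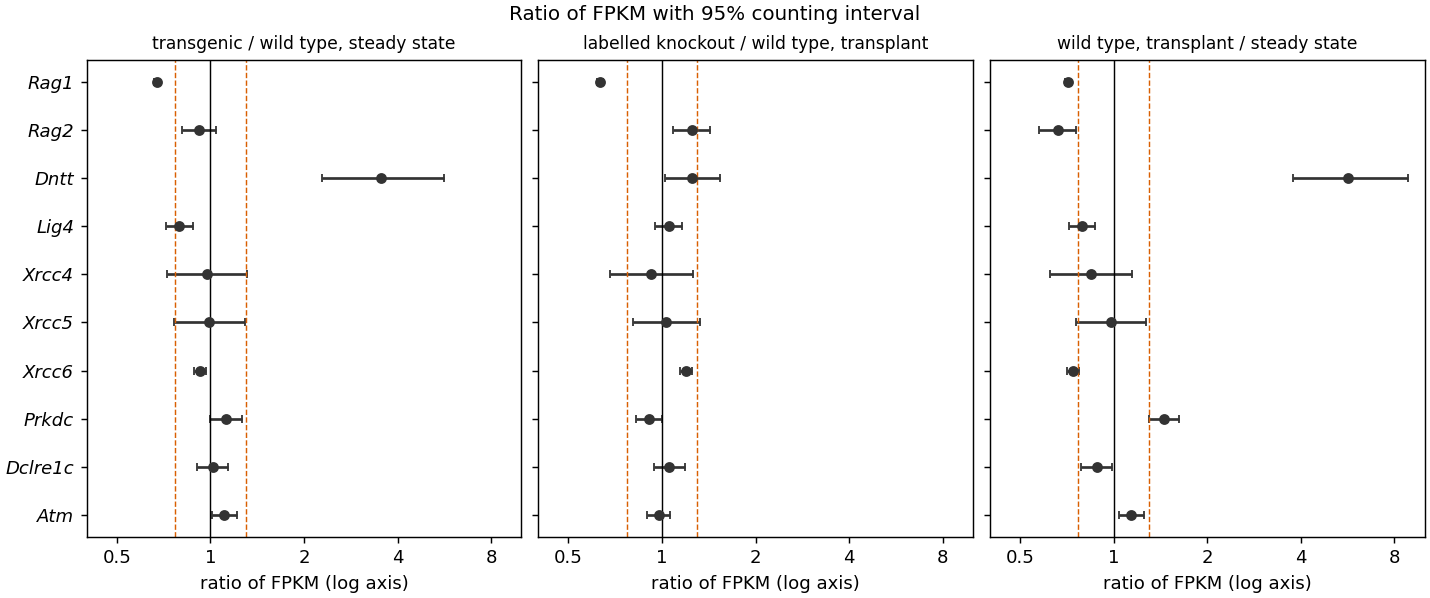
Ratio of FPKM of each gene on a log axis in 3 comparisons, with 95% counting intervals and dashed lines at 1.3-fold in either direction. Rag1 lies left of the lower line in all 3 panels, while Rag2 lies left of it only in the comparison of wild types, and the points of the end joining factors lie between the lines in the panels of genotype.

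Genes of the wider pathway were counted from lists, to be read beside the shares of all genes past 1.3-fold: 8.79% higher and 6.24% lower in the transgenic library, and 7.6% higher and 9.47% lower in the library labelled knockout. Of 9 other end joining factors in the files, 2 were at least 1.3-fold higher in the transgenic library than in wild type and 0 lower, and 2 and 0 in the library labelled knockout. Rescaled to the same sum, the transgenic counts were 0 and 1. Nhej1, the XLF partner of XRCC4, was at 11.6 FPKM in the transgenic library against 8.34 in wild type, while the library labelled knockout had 11.004 against 8.08, and neither ratio lay beyond counting error. Of 14 genes of the response to DNA breaks, 1 was higher by 1.3-fold in the transgenic library, close to the share of all genes and 0 when rescaled to the same sum. In the library labelled knockout 4 were higher, with 0 lower in each comparison of genotype. H2afx, the histone variant phosphorylated at breaks, was at 222 FPKM in the library labelled knockout and 119 in wild type (1.87, 1.74 to 2.01), Rnf168, a ubiquitin ligase of the break response, at 10.7 and 6.42 FPKM and Nbn, a subunit of the MRN complex, at 6.80 and 4.18 FPKM in the same order. Tdp1, which clears blocked DNA ends, was at 23.7 and 17.2 FPKM in that comparison, and 3110062M04Rik, the listed symbol of Cyren, an inhibitor of end joining, at 4.88 FPKM in transgenic cells and 3.28 in wild type.

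Among 6 cofactors of the recombinase, 3 were on the higher side in the transgenic library, 6 in the library labelled knockout and 0 in transplanted against steady-state wild type. Of all genes tested, 5064 of 10843, 4752 of 10790 and 4968 of 10835 were on the higher side in these comparisons, so the transgenic count is near the share of all genes. Hmgb1 and Hmgb2 encode chromatin proteins that bend DNA for the RAG complex, and Skp2 the ubiquitin ligase subunit through which RAG2 protein is degraded in dividing cells. Skp2 was at 9.90 FPKM in transgenic cells and 4.84 in steady-state wild type, and at 9.49 in the library labelled knockout and 4.83 in transplanted wild type, ratios of 2.05 (1.61 to 2.61) and 1.96 (1.56 to 2.49). Its levels thus paired the manipulated libraries with each other and the wild types with each other. Hmgb2 was at 371 FPKM in the library labelled knockout and 196 in wild type (1.89, 1.82 to 1.97) and Hmgb1 at 526 and 340 FPKM in the same order, while at steady state Hmgb2 was at 299 FPKM in transgenic cells and 250 in wild type. Of the cofactors, 1 was at least 1.3-fold higher in the transgenic library and 3 in the library labelled knockout, with 0 lower.

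Other repair routes were set beside end joining. Of 12 homologous recombination genes, 3 were at least 1.3-fold higher and 0 lower in the transgenic library (median 0.27), and 8 higher and 1 lower in the library labelled knockout (median 0.56), against the same shares of all genes. The 3 became 2 when rescaled to the same sum, and 5 with a pseudocount of 0.1 FPKM or scaled by the upper quartile. Rad54l was at 14.2 and 7.17 FPKM and Exo1 at 4.995 and 2.46 FPKM in the library labelled knockout and its wild type. Of 8 genes of alternative end joining, 3 were higher and 0 lower in each comparison of genotype (Lig1, Fen1 and Polq), against 1 and 1 in the transgenic library rescaled to the same sum. Of these, Lig1 was at 42.6 FPKM in the transgenic library against 29.1 in wild type, while the library labelled knockout had 49.0 against 29.1. All 18 cell cycle genes were on the higher side in each genotype comparison (17 in the transgenic library rescaled to the same sum), at medians of 0.41 and 0.90. Of all genes tested, 5064 of 10843 and 4752 of 10790 were on that side. In the transgenic library 10 of the 18 were at least 1.3-fold higher (2 rescaled to the same sum), beside 8.79% of all genes. In the library labelled knockout 17 were, beside 7.6%. The list summed to 1356 FPKM in the transgenic library against 1032 in wild type. After transplantation the sum was 1655 FPKM in the library labelled knockout against 939 in wild type. Between the wild types, where both Rag genes were lower after transplantation, the cell cycle list had a median of -0.21 with 5 of 18 higher, beside 4968 of all 10835 genes tested. The part of cell division in the Rag1 differences was not tested.

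**Figure D4:**
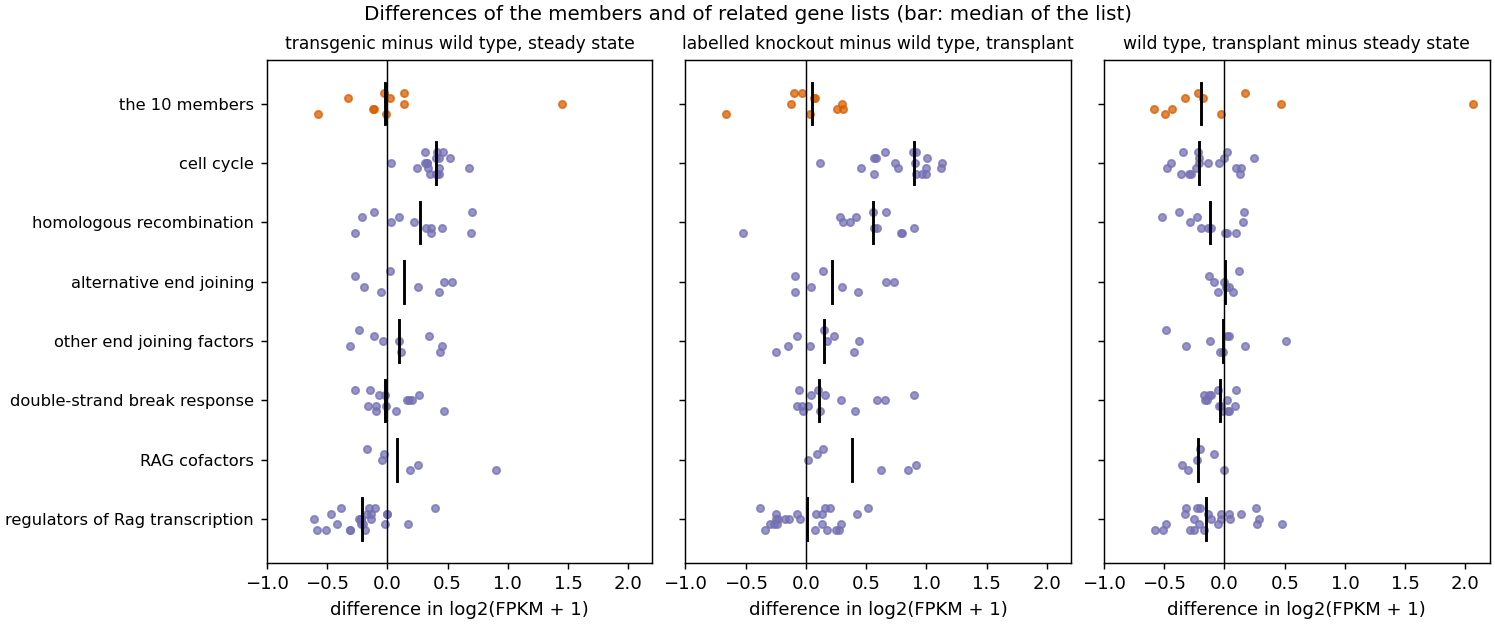
Differences in log2(FPKM + 1) of single genes (points) and the median of each list (bars) in 3 comparisons, for the 10 genes and 7 related lists. The medians of the cell cycle and homologous recombination lists lie right of 0 in both genotype panels, at 0.41 and 0.27 for transgenic against wild type and at 0.90 and 0.56 for labelled knockout against wild type.

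Transcription factors known to control the Rag genes were counted next, and the difference between the comparisons was not tested. Of 25 in the files, 24 reached 1 FPKM in either library of a pair. In the transgenic library 6 of these were at least 1.3-fold lower, beside 6.24% of all genes, and 1 was higher, beside 8.79% (median -0.21). Foxo1, Ebf1, Spib, Irf4, Sox4 and Bach2 were the 6 lower ones. The 6 became 5 when scaled by the median of gene ratios or the upper quartile. Rescaled to the same sum, 8 were lower and 0 higher, where 1276 of all genes in place of 677 were lower. In the library labelled knockout 0 were lower, beside 9.47% of all genes, and 2 higher, beside 7.6% (median 0.01). There 1 was lower with a pseudocount of 0.1 FPKM, and 3 were higher when rescaled to the same sum. Irf4 was at 173 FPKM in transgenic cells and 259 in steady-state wild type (0.668, 0.646 to 0.691) but at 220 in the library labelled knockout and 181 in transplanted wild type, and Sox4 was at 158 and 241 FPKM in the transgenic library and its wild type. Gfi1b, which encodes a repressor of the Rag genes, gave ratios of 1.43 (0.878 to 2.36) for transgenic over wild type and 1.64 (0.966 to 2.84) for labelled knockout over wild type, neither beyond counting error. Foxo1, an activator of both Rag genes, was singled out from the 24 after its values were seen. It was at 78.2 FPKM in the transgenic library against 111 in wild type (0.702, 0.677 to 0.729). In the library labelled knockout it was at 78.1 against 99.0 (0.789, 0.761 to 0.817), so that only the first passed 1.3-fold. Rag2 did not go the same way in both, with ratios of 0.920 and 1.24. Of the 24 regulators, 12 were on the higher side in the library labelled knockout and 3 in the transgenic library.

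Profiles over the 4 libraries were compared among 1201 genes at 5 FPKM or more on average whose profile had an SD of at least 0.2 on the log2 scale, by the root mean square distance between log2 values centred on their own mean. Nearest to Rag1 were Nlrc4, Matk, Tmem191c, Tbx6 and Orai2, at distances of 0.07 to 0.10. Nearest to Rag2 were Rbm4b, Dpm3, Tifab, Zfp526 and Thbd, at 0.03 to 0.05. The 5 nearest to Dntt were farther, at 0.25 to 0.31: Lgals3bp, Rtp4, Oas2, Mx1 and Ccnd2. Of these, Oas2 and Mx1 are interferon-stimulated genes, and Rtp4, also known as one, was at 16.0 FPKM in transgenic cells and 4.50 in steady-state wild type, and at 18.97 in the library labelled knockout and 18.2 in transplanted wild type. With 4 libraries a near profile describes these libraries alone.

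Rag1 was lower in the transgenic library, where all 8 neutrophil markers were higher by at least 1.3-fold, and lower in the library labelled knockout, where all 8 were lower by at least 1.3-fold. In transplanted against steady-state wild type, where both Rag genes were lower, all 8 neutrophil, all 5 monocyte and macrophage and all 5 immature and mature B cell markers were higher by at least 1.3-fold. So were all 3 early progenitor and pro-B markers tested. Both of the 2 erythroid markers tested and 2 of the 4 plasma cell markers were lower by at least 1.3-fold. The part of other cells in these differences was not tested. The 5 immature and mature B cell markers in the files summed to 3185 FPKM in the transgenic library against 2221 in steady-state wild type and to 2408 in the library labelled knockout against 3906 in transplanted wild type, and so took opposite sides as well. Monocyte and macrophage markers summed to 82.9 against 48.8 FPKM in the transgenic library and its wild type, and to 48.6 against 118 in the library labelled knockout and its wild type, T and NK cell markers to at most 8.58 FPKM in any library, and erythroid markers to 4.86 FPKM in the transgenic library against 35.0 in steady-state wild type. Erythroid markers summed to 8.63 FPKM in the library labelled knockout against 5.67 in transplanted wild type. Plasma cell markers summed to 299.7 FPKM in the transgenic library against 417 in steady-state wild type and to 90.7 in the library labelled knockout against 96.5 in transplanted wild type.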

How the data were processed

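RNA was extracted with miRNeasy and made into libraries with the TruSeq stranded mRNA kit, per the labels' protocols. The deposited values were taken as FPKM, since they are not whole and low values lie on steps set by transcript length. Per the submitters' processing notes the build was mm10. The same notes name Cufflinks 2.2.1, TopHat2 2.0.13, SAMtools 0.1.19 and Bowtie2 2.2.3. Their roles, the annotation and any scaling between libraries are not given in the sources used.

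Reads were estimated from FPKM, depth and a transcript length minus 210 nt, taking the shortest principal transcript of GENCODE M21 (GRCm38, the assembly mm10 names). Among values of 1 to 8 reads in genes with 1 annotated transcript over 600 nt, 69.9% to 75.7% lay within 0.1 of a whole read, against 20% for even spread; genes used for the depth estimate are part of this share. Ratios carry exact Clopper-Pearson intervals, and ratios of partner genes intervals from the Poisson variance of log reads. Both cover counting error only. Differences are log2(FPKM + 1), which understates low genes, over genes that reached 1 FPKM in at least 1 library of a pair. The depth and fold steps were tested on simulated reads. These reads were made with the same length rule, so that they cannot check that rule on the deposited values. Alternatives were a pseudocount of 0.1, other scalings and other filters on low values; their use on the related lists was added after seeing the data.

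The 10 genes, the lists, the markers and the 1.3-fold threshold were chosen with earlier results of these data known. Named genes are the 10, the 3 list members with the largest differences in either genotype comparison, and the 5 nearest profiles of Rag1, Rag2 and Dntt; other gene names were added as markers, as neighbours on the chromosome or after their values were seen. Paxx, Ighd and Trac matched no symbol. Some genes that the rule names are not reported here. Python 3.11.15, numpy 2.4.6, pandas 2.3.3 and scipy 1.17.1 were used.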

Additional observations from a re-analysis of the deposited data

How the results depend on the processing

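Of 150 differences of single genes among the 10 under 5 alternatives of pseudocount or scaling, 145 kept their sign, and so did all 40 belonging to differences past 1.3-fold. Rescaling to the same FPKM sum moved the median of all genes to -0.13, 0.06 and -0.12 for transgenic against wild type, labelled knockout against wild type and transplanted against steady-state wild type. It put Rag1 at -0.69, -0.56 and -0.60 in that order. It turned the split at 1.3-fold from 953 higher and 677 lower to 602 and 1276 in the first comparison, from 820 and 1022 to 1223 and 710 in the second, and from 1095 and 691 to 817 and 1214 in the third. The 10 genes past 1.3-fold in the second then numbered 3, with Rag2 and Dntt added, and Lig4 passed on the lower side in the others. In the second comparison Rag1 was at -0.63 under the median of gene ratios and at -0.62 under the upper quartile. With a pseudocount of 0.1, 434, 421 and 504 genes passed 2-fold against 206, 199 and 249. Among genes at 5 FPKM or more, 980, 1207 and 1125 passed 1.3-fold against 1630, 1842 and 1786, and 113 and 132 passed 2-fold in the first and second comparisons. The median of the end joining factors ranged from -0.12 to 0.01, from 0.04 to 0.13 and from -0.28 to -0.17 over the alternatives. On the related lists, tried after seeing the data, rescaling to the same sum moved the transgenic medians to 0.01 for other end joining factors, -0.04 for recombinase cofactors (0.08 as deposited), -0.33 for Rag regulators and 0.29 for cell cycle genes, of which 2 in place of 10 then passed 1.3-fold. No library could be left out and no paired analysis was possible because each group has 1 library. Dntt in steady-state wild type rests on about 27 reads, and Xrcc4 on 85 to 96 in each library, so that changes under about 1.3-fold in Xrcc4 and Xrcc5 were not detectable at this depth.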
